A study of Mus musculus with 6 samples.

Results

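FLRT, latrophilin and teneurin proteins are 3 families of neuronal cell-surface proteins that bind one another. Their 10 genes were Flrt1 to Flrt3, Lphn1 to Lphn3 (latrophilins, now Adgrl1 to Adgrl3) and Odz1 to Odz4 (teneurins, now Tenm1 to Tenm4), found by symbol among 36291 gene rows. Each of the 10 symbols had 1 row, and all 10 passed the filter on low counts. The RefSeq gene table lists Odz1, Odz2 and Odz3 each as an older name of 2 teneurins, and the one with the same number was taken. Messenger RNA was sequenced from eGFP-positive cells that flow cytometry had sorted from E14.5 telencephalon of mice of the Swiss strain. There were 3 knockout (KO) libraries, with Sip1 (Zeb2, a zinc finger homeobox transcription factor) deleted in the Nkx2-1 lineage, and 3 wild-type (WT) libraries. In both genotypes the green cells were those in which an Nkx2-1-iCre driver had acted, so the libraries speak for descendants of ventral forebrain progenitors. The labels name neither the deleted allele nor the reporter allele, and do not say whether embryos were pooled. The series asked how Sip1 bears on the migration of cortical interneurons.

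Each library carries a number, K77, K79 or K80, and each number has 1 KO and 1 WT library. Levels are CPM (counts scaled to a common library size by TMM) given in the order K77, K79, K80, means are ± SD with n = 3 libraries per genotype, and a log2 fold change is KO over WT with its standard error (SE). A gene is called where the Benjamini-Hochberg adjusted p of edgeR's quasi-likelihood test is under 0.05 over the 13835 genes tested. Gene counts ranged from 8323531 to 11069437 per library. Zeb2 had 343, 272 and 307 CPM in KO and 705, 513 and 768 CPM in WT, which is -1.11 on the log2 scale (SE 0.138, adjusted p = 0.00116 by edgeR). The library WT K79 stood apart, with 26109 Xist counts against 13 to 28 in the other 5 libraries. It had 6 counts over 4 Y-linked genes against 2651 to 3745. By these counts WT K79 held female cells and the other 5 libraries male cells, so sex was not balanced between the genotypes.

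All 14 medial ganglionic eminence and interneuron markers passed the filter, and together they reached 7036 to 8068 CPM in KO and 6351 to 7619 CPM in WT. Of these, Nkx2-1, Gad2 and Sox6 were called higher in KO and Erbb4, Dlx5 and Slc32a1 lower. With the library number as a block in the edgeR fit Lhx8 was called higher too (adjusted p = 0.0098). The filter does not set the 14 apart, since all 13 cortical glutamatergic, 13 cycling progenitor, 6 oligodendrocyte precursor and 8 endothelial markers passed too. The 8 endothelial markers summed to 14.6 to 24.9 CPM in KO and 16.1 to 30.9 CPM in WT. The 8 microglial markers summed to 3.44 to 4.45 CPM in KO and 3.55 to 5.45 CPM in WT, each averaging under 1 CPM. The 8 pericyte and meningeal markers summed to 19.7 to 36.4 CPM in KO and 14.05 to 33.1 CPM in WT, and the 10 erythroid markers to 10.9 to 25.01 CPM in KO and 18.0 to 31.4 CPM in WT. The 13 cortical glutamatergic markers summed to 769 to 960 CPM in KO and 806 to 1131 CPM in WT. Most of this sum was Bcl11b, at 529 ± 56.2 CPM in KO and 541 ± 41.1 CPM in WT. Of the markers tested in these 5 lists edgeR without the block on the library number, DESeq2 and limma voom each called 0, and 2 markers had an unadjusted edgeR p under 0.05, 1 cortical glutamatergic gene lower and 1 pericyte and meningeal gene higher. With the block edgeR called 1 erythroid marker lower and 1 pericyte and meningeal marker higher. Of 6 oligodendrocyte precursor markers 5 were called lower without the block and all 6 with it. The 6 summed to 50.9 to 59.3 CPM in KO and 126 to 148 CPM in WT. Of 13 markers of cycling progenitors 2 were called lower without the block, and 6 lower and 1 higher with it. Their sum was 1681 to 2075 CPM in KO and 1963 to 2573 CPM in WT. Over all genes tested edgeR called 3.64% higher and 2.62% lower, or 6.13% and 4.45% with the block. The part of these cell types in the results below was not tested.

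FLRT proteins are single-pass membrane proteins with leucine-rich repeats and a fibronectin domain, which bind latrophilins and also the netrin receptors of the Unc5 family. Latrophilins are adhesion G-protein-coupled receptors named for the black widow spider toxin that binds them, and teneurins are very large single-pass proteins that join them across the cell contact. In the developing cortex these contacts can attract or repel, and they are known for roles in the spread of migrating pyramidal neurons, in axon wiring and in synapse formation.

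Of the 10 genes, Flrt3 and Odz1 rose in KO cells, Lphn2 fell slightly, and the other 7 were not called. With the library number as a block, Odz3 was called higher as well. Across all genes tested edgeR called 6.27%, with 3.64% higher and 2.62% lower, and with the block 10.6%, with 6.13% higher and 4.45% lower. The calls were thus 2 higher and 1 lower of 10 without the block and 3 higher and 1 lower with it. The median log2 fold change of the 10 genes was 0.10, beside -0.01 over all genes tested. Without regard to a test, the KO libraries lay wholly above the WT libraries in 3 of the 10 genes and wholly below them in 1, against 23.2% of all tested genes with no overlap in either direction. The calls for Flrt3 and Odz1 held with any 1 library left out, whereas that for Lphn2 was kept in 1 of the 6 omissions, without WT K79 (edgeR adjusted p = 0.0480). In these bulk samples fewer cells expressing a gene and less RNA per cell cannot be told apart.

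**Figure D1:**
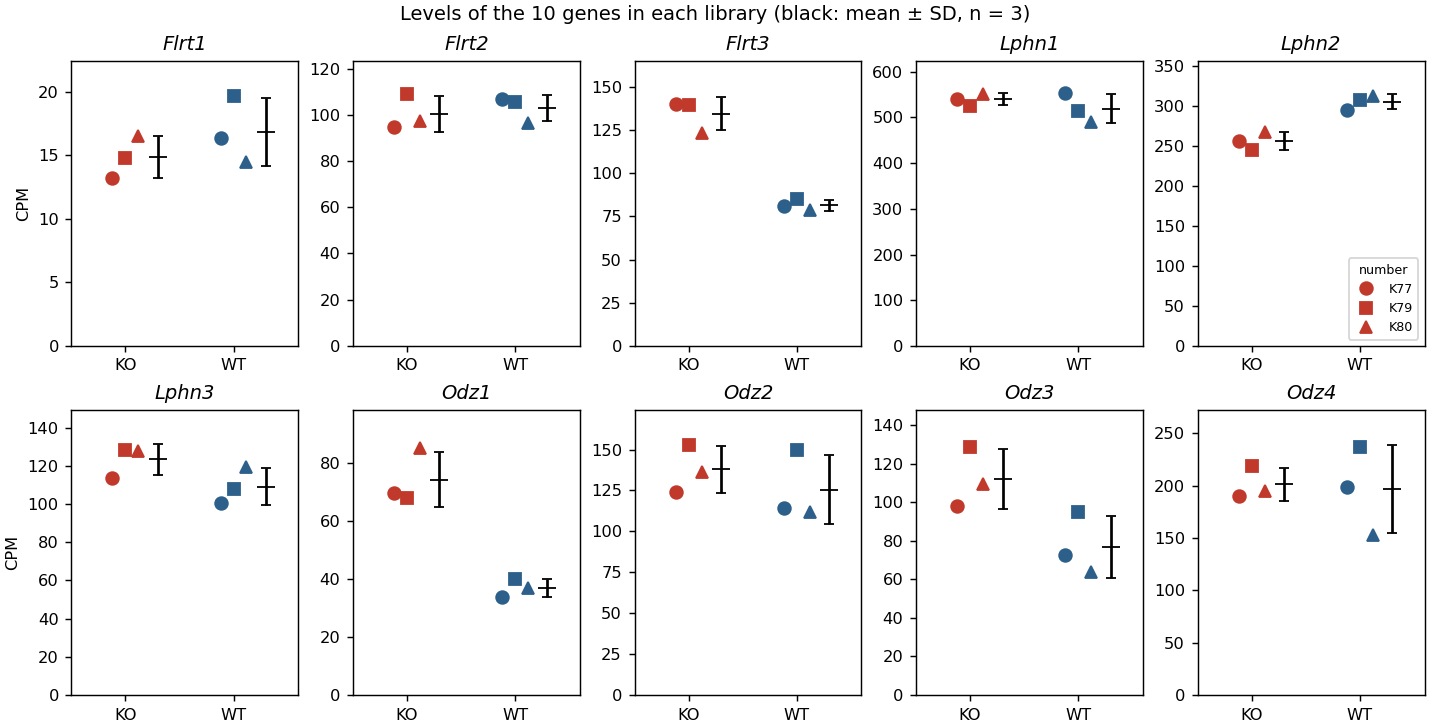
CPM (linear axis from 0) of the 10 genes in each KO (left) and WT (right) library, with markers for the numbers K77, K79 and K80 and the mean ± SD in black. Flrt3 lies at 123 to 140.3 CPM in KO and 78.6 to 85.0 in WT, Odz1 at 68.0 to 85.0 in KO and 33.8 to 40.1 in WT, and most other panels overlap.

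Flrt3 had 140.3, 139.7 and 123 CPM in KO and 80.9, 85.0 and 78.6 CPM in WT. All KO libraries were thus above all WT libraries, and the spread within a genotype was small beside the gap. The means were 134 ± 9.62 CPM in KO and 81.5 ± 3.26 CPM in WT, a 1.65-fold rise (log2 fold change 0.72, SE 0.0700, edgeR adjusted p = 0.000288). FLRT3 is a ligand of Unc5 receptors and latrophilins and is also known to bind Robo1 on growing thalamic axons. Leaving out any 1 library gave log2 fold changes of 0.69 to 0.78 and adjusted p up to 0.00343. Within the numbers the KO over WT log2 ratio was 0.79 for K77, 0.72 for K79 and 0.65 for K80. Flrt3 lies inside an intron of Macrod2 on the opposite strand, and the 2 genes share 0 exon bases in GENCODE M21. Macrod2 itself was not called (log2 fold change 0.14, SE 0.0969, edgeR adjusted p = 0.533).

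The other 2 FLRT genes were not called. Flrt2, whose product repels cortical neurons carrying Unc5d, had 94.9, 109 and 97.2 CPM in KO and 107, 106 and 96.5 CPM in WT. The genotypes overlapped throughout, with a log2 fold change of -0.04 and a 95% interval of -0.20 to 0.13 (SE 0.0739, edgeR adjusted p = 0.853). Flrt1 rested on the fewest reads of the 10, with 13.2, 14.8 and 16.5 CPM in KO and 16.4, 19.7 and 14.4 CPM in WT, from 110 to 182 counts per KO library and 150 to 205 per WT library. Its log2 fold change was -0.18 with an interval of -0.50 to 0.15 (SE 0.145, edgeR adjusted p = 0.600), and its KO library was the higher one only in K80. Flrt1 lies within an intron of Macrod1, which had a mean of 1.68 ± 0.382 CPM in KO and 2.10 ± 0.425 CPM in WT and was not called.

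The make-up of FLRT reads is given as shares, without a test. Flrt3 held 56.5, 53.0 and 52.1% of FLRT family reads in KO and 39.6, 40.4 and 41.5% in WT. Flrt2 held 38.2, 41.4 and 41.0% in KO and 52.4, 50.3 and 50.9% in WT. Flrt3 was thus the gene with most FLRT reads in each KO library and Flrt2 in each WT library. These reads are not corrected for gene length. Per kb of exon union Flrt3 (16.8 ± 0.670) was above Flrt2 (13.4 ± 0.739) in WT too. Per kb of coding length Flrt2 (52.1 ± 2.88) was above Flrt3 (41.9 ± 1.67) in WT. The FLRT sum was 250 ± 13.4 CPM in KO and 201 ± 10.7 CPM in WT.

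**Figure D2:**
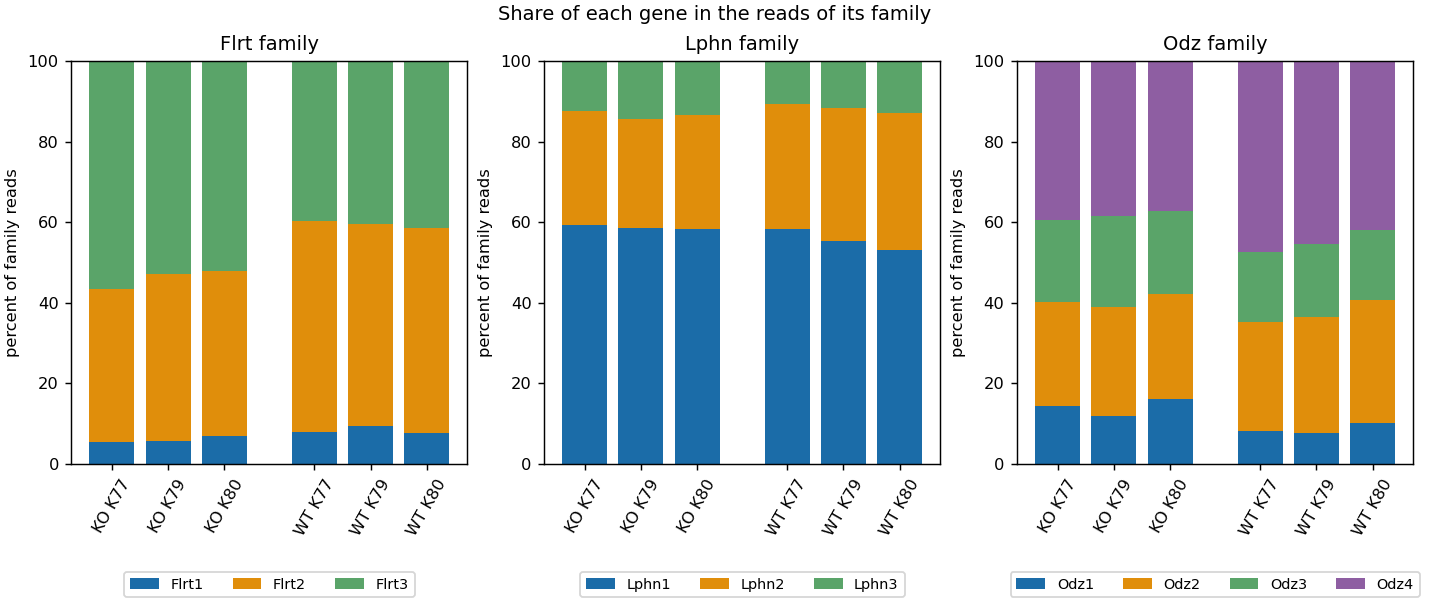
Percent of the reads of each family (0 to 100%) taken by each of its genes, 1 stacked bar per library, KO left of WT. In the FLRT panel the Flrt3 share is 52.1 to 56.5% in KO and 39.6 to 41.5% in WT, and in the teneurin panel Odz1 takes 11.97 to 16.2% in KO and 7.69 to 10.1% in WT.

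Among the teneurins Odz1, the X-linked member, had 69.5, 68.0 and 85.0 CPM in KO and 33.8, 40.1 and 36.8 CPM in WT. The lowest KO library was well above the highest WT library. The means were 74.2 ± 9.43 CPM in KO and 36.9 ± 3.16 CPM in WT, a 2.01-fold rise and the largest fold change among the 10 genes (log2 fold change 1.01, SE 0.105, edgeR adjusted p = 0.000461). Because Odz1 lies on the X chromosome, its values without WT K79, the library with high Xist, bear on it directly, and the log2 fold change was then 1.07 (edgeR adjusted p = 0.000548). Without any 1 library it was 0.89 to 1.07, with adjusted p up to 0.00289, and within the numbers it was 1.04, 0.76 and 1.21. In GENCODE M21 the gene shares 1465 exon bases with Sh2d1a on the opposite strand, a row with 0 to 2 counts per library.

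Odz3, a teneurin known for matching connections in the hippocampal and visual pathways, had 98.0, 128 and 109.5 CPM in KO and 72.4, 94.7 and 63.6 CPM in WT. The genotypes did not overlap, and K79 was the highest library in both. The means were 112 ± 15.4 CPM in KO and 76.9 ± 16.04 CPM in WT, 1.46-fold apart (log2 fold change 0.54, SE 0.142, edgeR adjusted p = 0.0529), just short of a call. With the number as a block the log2 fold change was 0.55 and the edgeR adjusted p = 0.00173. The KO library exceeded its WT partner by 0.44, 0.44 and 0.78 on the log2 scale for K77, K79 and K80. Odz3 was also called by DESeq2 (adjusted p = 0.00146) and by limma voom (adjusted p = 0.0476), and by edgeR without WT K79 (adjusted p = 0.00524) or without KO K77 (adjusted p = 0.0441). Without 1 of the other 4 libraries the edgeR adjusted p was 0.132 to 0.221.

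Odz2 and Odz4 were not called. Odz2, whose product is a high-affinity ligand of Lphn1, had 124, 153 and 136 CPM in KO and 114, 149.6 and 112 CPM in WT. Each KO library was above its WT partner, by 0.12, 0.03 and 0.29 on the log2 scale, while the genotypes overlapped and the fitted log2 fold change was 0.14 with an interval of -0.12 to 0.40 (edgeR adjusted p = 0.604). Odz4, known for a role in the maturation of oligodendrocytes, had 189.6, 219 and 195 CPM in KO and 199, 237 and 153 CPM in WT. Its WT libraries spread more widely than its KO libraries and enclosed them, and the log2 fold change of 0.03 had an interval of -0.26 to 0.33 (edgeR adjusted p = 0.928). The shares of teneurin reads did not overlap between genotypes for any of Odz1 to Odz4, again without a test. Within a family the shares are tied, so higher shares of Odz1 and Odz3 leave less for Odz2 and Odz4. Odz1 took 14.4, 11.97 and 16.2% of teneurin reads in KO and 8.05, 7.69 and 10.1% in WT, and Odz4 took 39.4, 38.5 and 37.1% in KO and 47.4, 45.5 and 41.9% in WT. The teneurin sum overlapped between genotypes, at 525 ± 43.5 CPM in KO and 436 ± 79.37 CPM in WT.

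Latrophilins, the receptors that both other families bind, summed to 919 ± 25.4 CPM in KO and 933 ± 13.6 CPM in WT, and these sums overlapped. Lphn2 had 256, 245 and 267 CPM in KO and 295, 308 and 313 CPM in WT. Each KO library was below each WT library, and the gap was small, with a log2 fold change of -0.25, or 1.19-fold lower (SE 0.0584, edgeR adjusted p = 0.0308). DESeq2 (adjusted p = 0.0109) and limma voom (adjusted p = 0.0272) called it too. Leaving out KO K77, KO K79, KO K80, WT K77 or WT K80 moved the adjusted p to 0.0845, 0.132, 0.0711, 0.0513 and 0.0721, so 5 of the 6 omissions ended the call, while the log2 fold change stayed between -0.29 and -0.22.

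Lphn1, the main receptor for the spider toxin, had 541, 526 and 552 CPM in KO and 553, 514 and 491 CPM in WT. The libraries of the 2 genotypes were intermixed, and the log2 fold change of 0.06 had an interval of -0.08 to 0.19 (edgeR adjusted p = 0.704). Lphn3, known for a role at excitatory synapses, had 114, 128 and 128 CPM in KO and 100.3, 108 and 119 CPM in WT. Each KO library was above its WT partner, by 0.18, 0.25 and 0.10 on the log2 scale, yet KO K77 lay below WT K80. The log2 fold change was 0.18 with an interval of 0.00 to 0.35, and it was not called without the block (SE 0.0784, edgeR adjusted p = 0.265) or with it (adjusted p = 0.0808). Lphn2 held 28.1, 27.2 and 28.2% of latrophilin reads in KO and 31.1, 33.1 and 33.9% in WT.

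In the files 4 rows share exon bases with a member on the opposite strand in GENCODE M21, 1 each for Lphn1, Lphn3, Odz1 and Odz4. They held 0 to 29 counts per library. Whether counting used strand is not stated in the labels, so how reads from shared bases were assigned is not known. Such reads may have gone to the row for ambiguous reads and been counted for neither gene. The low counts therefore do not measure the effect of the overlap.

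**Figure D3:**
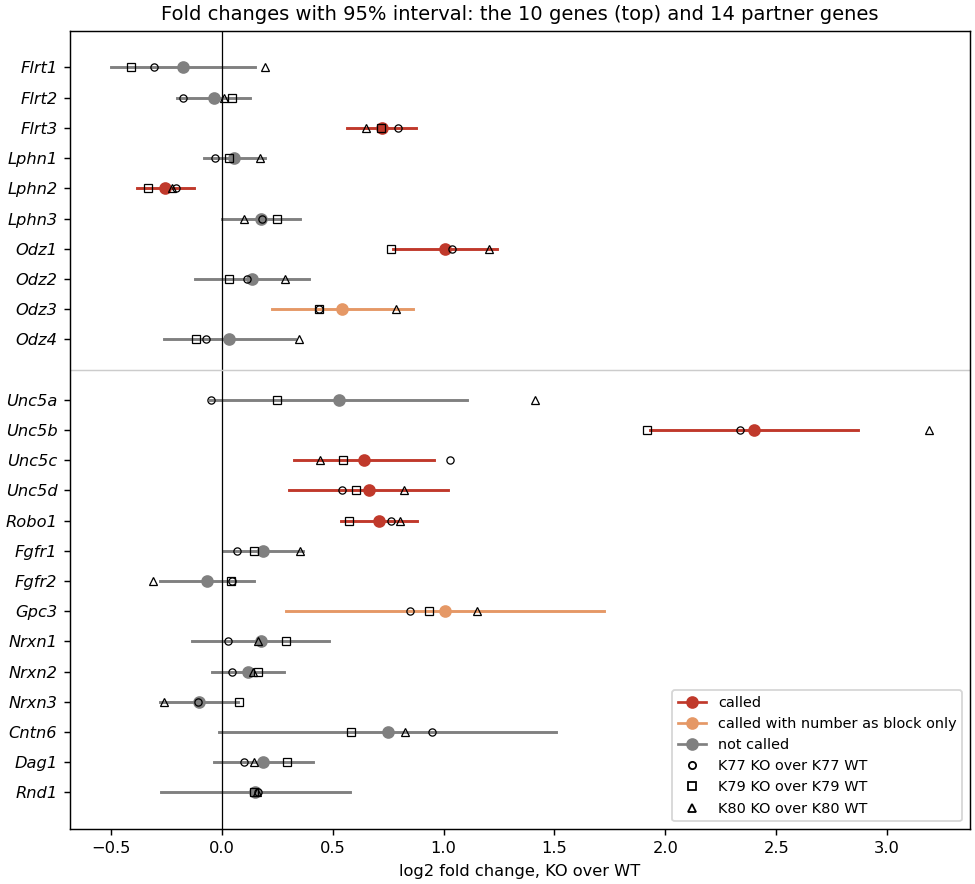
Log2 fold change (KO over WT) with its 95% interval for the 10 genes (top) and 14 partner genes (bottom), coloured by call, with open symbols for the KO over WT ratio within each number. Flrt3, Odz1 and Odz3 have all 3 ratios at 0.44 or above, Lphn2 has all 3 below 0, and Unc5b lies farthest right at 2.40.

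The promoter windows of Flrt3, Odz1 and Odz3, the 3 genes called higher by edgeR with the block, are shown because Zeb2 is known to bind DNA at paired CACCT-type elements. They are the 250 bases before the RefSeq start, build GRCm38.p6, 5′ to 3′ on the gene's strand, with CACCT on either strand (AGGTG on the other) and CACCTG in capitals. CACCTG contains CACCT, and the shorter motif was added after the windows had been seen. Flrt3 is at chr2:140671477-140671726, Odz1 at chrX:43274785-43275034 and Odz3 at chr8:48674691-48674940, all on the minus strand.
Flrt3: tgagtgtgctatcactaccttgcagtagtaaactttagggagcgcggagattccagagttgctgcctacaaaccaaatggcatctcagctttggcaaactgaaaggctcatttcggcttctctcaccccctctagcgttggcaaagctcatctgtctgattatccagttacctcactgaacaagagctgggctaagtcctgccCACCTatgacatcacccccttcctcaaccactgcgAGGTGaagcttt
Odz1: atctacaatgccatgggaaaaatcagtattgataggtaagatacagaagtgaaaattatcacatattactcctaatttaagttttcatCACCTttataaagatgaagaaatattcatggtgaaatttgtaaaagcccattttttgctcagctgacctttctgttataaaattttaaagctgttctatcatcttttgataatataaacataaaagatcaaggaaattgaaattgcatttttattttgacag
Odz3: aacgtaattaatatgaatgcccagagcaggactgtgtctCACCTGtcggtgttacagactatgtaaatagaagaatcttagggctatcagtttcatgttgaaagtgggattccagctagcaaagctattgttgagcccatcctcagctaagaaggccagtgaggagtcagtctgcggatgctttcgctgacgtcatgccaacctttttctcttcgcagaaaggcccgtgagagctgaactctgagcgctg

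The Flrt3 window held CACCT at 2 places, starting 47 and 12 bases before the start, the first on the strand of the gene and the second on the opposite strand. The Odz1 window held 1 CACCT, and the Odz3 window held 1 CACCTG, at 211 bases before the start. Over all 32851 windows of the same length in the table, 46.0% held CACCT at least once, 13.8% held it at 2 or more places and 17.2% held CACCTG. By gene, 13342 of 27025 held CACCT in at least 1 window and 5252 held CACCTG. Of the 10 genes 9 had a window, all but Flrt1, with 12 windows in all. CACCT was in 8 of the 12 windows, for 7 of the 9 genes, and CACCTG in 1, and 1 CACCT of Lphn3 was counted in both of a pair of overlapping windows. Flrt2, which was not called, also held CACCT at 2 places, 220 and 41 bases before the start. The windows of Lphn2, called lower, and of Lphn1, not called, held neither motif. Each promoter sequence runs on past the start, beyond the window. Its last 30 bases lay in a GENCODE transcript of the same gene for 11 of the 12 windows, the exception being Odz1. The start itself was not compared, so the Odz1 window in particular may not lie at a promoter of the gene. A match describes letters in a window and was not tested as a binding site.

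Levels can be set side by side between genes only per length, here as CPM per kb of the union of exons in GENCODE M21. On that scale Lphn1 stood highest, at 62.9 ± 1.54 in KO and 60.5 ± 3.69 in WT, with no library of another member near it. In KO the order went on with Flrt3 (27.6 ± 1.98), Lphn2 (18.0 ± 0.803) and Flrt2 (13.01 ± 1.00), while in WT it was Lphn2 (21.5 ± 0.642), Flrt3 (16.8 ± 0.670) and Flrt2 (13.4 ± 0.739). Flrt3 and Lphn2 thus changed places, and their libraries did not overlap in either genotype. Below them Flrt2, Odz2, Odz3 and Odz4 formed a run in which each overlapped the next in both genotypes, and in WT Lphn3 joined it. Odz1 and Flrt1 were lowest, with Odz1 at 4.18 ± 0.532 and Flrt1 at 2.53 ± 0.279 in KO. In WT Odz1 stood at 2.08 ± 0.178 and Flrt1 at 2.86 ± 0.452, the reverse order. With coding length in place of the exon union Lphn1 stayed highest, Flrt3 and Lphn2 again changed places, and in WT Flrt2 (52.1 ± 2.88 CPM per kb) stood above Flrt3 (41.9 ± 1.67). The run did not hold on coding length, where Flrt2 lay apart from Odz2 (50.7 ± 3.90 against 16.6 ± 1.75 CPM per kb in KO, and 52.1 ± 2.88 against 15.1 ± 2.54 in WT). Lphn3 then had a higher mean than each teneurin in both genotypes, though its libraries overlapped those of Odz4.

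**Figure D4:**
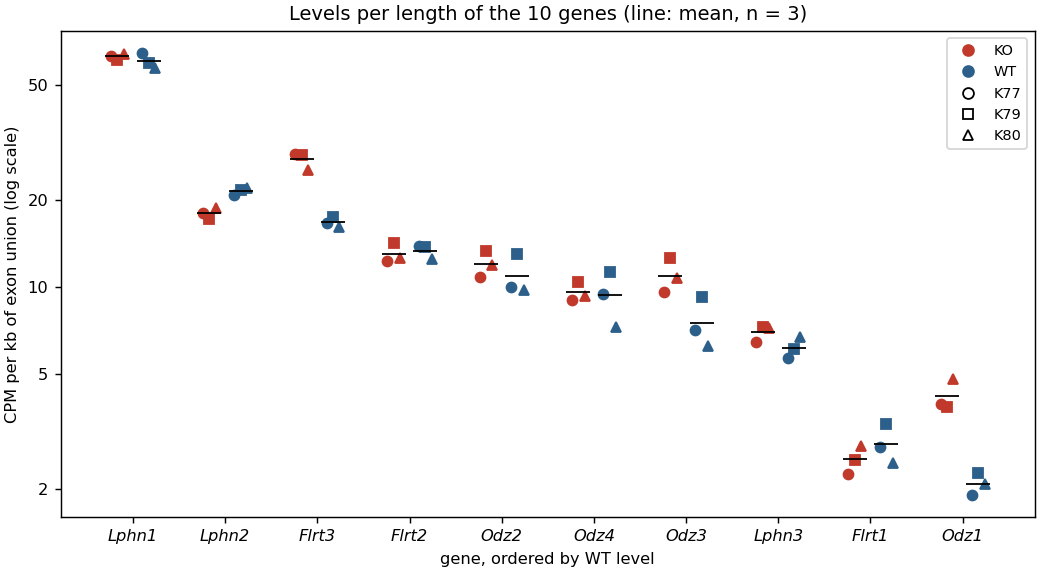
CPM per kb of exon union (log axis) for the 10 genes ordered by WT level, KO in red left of WT in blue, 1 symbol per library and a line at the mean. Lphn1 is highest in both genotypes, Flrt3 is above Lphn2 in KO and below it in WT, and Odz1 is above Flrt1 in KO and below it in WT.

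Among 14 genes whose products bind or work with these families, edgeR called 4 higher and 0 lower, and 10 were not called. Over all tested genes the shares were 3.64% higher and 2.62% lower, or 6.13% and 4.45% with the block. The partner list was chosen with earlier results of these data known, so these counts do not test whether partner genes rise. Counts of 0 lower were also given by DESeq2, by limma voom and at an unadjusted edgeR p under 0.05. With 2.62% of all tested genes called lower, 0 of 14 is near that share. With the block Gpc3 was called too (adjusted p = 0.00353), making 5. The median log2 fold change of the 14 was 0.36. Besides Robo1 the 4 called without the block were Unc5b, Unc5c and Unc5d, netrin receptors of 1 family that bind FLRT proteins. Unc5b had 69.9, 61.6 and 65.7 CPM in KO and 13.8, 16.3 and 7.21 CPM in WT, 2.40 higher on the log2 scale (SE 0.210, adjusted p = 0.000169 by edgeR). Unc5c averaged 78.3 ± 3.75 CPM in KO and 50.02 ± 11.4 CPM in WT (log2 fold change 0.64, SE 0.141, edgeR adjusted p = 0.0256), and its call was lost without KO K79 (0.117) or KO K80 (0.0957). Unc5d averaged 75.9 ± 15.2 CPM in KO and 48.0 ± 9.14 CPM in WT (log2 fold change 0.66, SE 0.161, edgeR adjusted p = 0.0391). Its call was lost without KO K79 (0.174), KO K80 (0.162), WT K77 (0.135) or WT K80 (0.107). With KO K79 or KO K80 left out, 2 partner genes were called higher.

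The Slit receptor gene Robo1 had 579, 554 and 532 CPM in KO and 341, 372 and 305 CPM in WT, or 0.71 higher on the log2 scale (SE 0.0767, adjusted p = 0.000556 by edgeR). Unc5a, the remaining Unc5 gene, named after its values were seen, stood at 23.8 ± 6.52 CPM in KO and 16.6 ± 5.77 CPM in WT and was not called (log2 fold change 0.53, edgeR adjusted p = 0.325). The heparan sulfate proteoglycan gene Gpc3, whose product binds Unc5 receptors, averaged 10.5 ± 4.02 CPM in KO and 5.26 ± 1.78 CPM in WT (log2 fold change 1.01, SE 0.321, edgeR adjusted p = 0.111 without the block). The neurexin genes Nrxn3 and Nrxn2, whose products bind latrophilins, had the highest CPM among the partners not called. Nrxn3 stood at 502 ± 4.92 CPM in KO and 539 ± 60.3 CPM in WT, and Nrxn2 at 444 ± 37.0 CPM in KO and 409 ± 22.7 CPM in WT.

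For scale, 2 related groups of genes were read from the same fit. Of 28 other adhesion G-protein-coupled receptor genes 16 passed the filter, of which edgeR called 2 higher, Bai2 by 0.53 and Gpr56 by 0.21 on the log2 scale, and 0 lower. The 0 was the same by DESeq2, by limma voom and at an unadjusted p under 0.05, and with the block 4 were called higher. The call for Gpr56 (edgeR adjusted p = 0.0478) was lost with any 1 library left out (0.0507 to 0.234). Of 31 other neuronal leucine-rich-repeat genes all were tested, 6 rose and 2 fell (9 and 2 with the block), with Lrrn1 at 0.92 and Slitrk5 at 1.00 and a median of 0.24. Over all genes tested 3.64% were called higher and 2.62% lower, or 6.13% and 4.45% with the block. The 0 lower of 16 is thus near the share over all genes. Both groups were listed with earlier results of these data known, and no difference between them and the 10 genes was tested.

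The genes whose 6 library values, as log2 CPM centred on their mean, lay closest to a member were looked up among 11022 genes of at least 5 CPM, for the member with the lowest p in each family. Nearest to Flrt3 were Robo1, D8Ertd82e and Aff2, at root mean squared distances of 0.0619, 0.0625 and 0.0631. Nearest to Odz1 were Rgnef, Lsamp and Acsl1, at 0.0622, 0.0660 and 0.0821. Lsamp, which encodes a limbic adhesion protein, had 135, 138 and 171 CPM in KO and 61.4, 81.6 and 76.99 CPM in WT. Nearest to Lphn2 were Rpain, Arv1 and Haus8, at 0.0299, 0.0302 and 0.0308, and none of these 3 was called by edgeR. With 6 libraries these distances mainly rank genes by how alike their KO and WT levels are.

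In the authors' deposited table, which calls 5.54% of 21687 genes at an adjusted p under 0.05 (3.37% higher and 2.17% lower), Flrt3, Odz1 and Odz3 were called higher. It gives them folds of 1.65, 2.01 and 1.46 and adjusted p of 2.15e-10, 3.3e-16 and 4.32e-06. For Lphn2 the authors' deposited table gives a fold of 0.838 and an adjusted p of 0.0741, which is no call. Of the 14 partner genes the authors' deposited table calls 6 higher, the 4 called here by edgeR without the block and also Unc5a (fold 1.43, adjusted p = 0.00804) and Gpc3 (adjusted p = 0.000152).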

How the data were processed

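RNA was measured in 3 KO and 3 WT libraries. Per the labels' protocols, poly-A RNA from 100 ng of total RNA was amplified by 15 PCR cycles, and the pooled libraries were sequenced from 1 end for 36 cycles. Tools named in the submitters' processing notes are TopHat 1.2.0, HTSeq 0.5.3p3, DESeq 1.2.2, with build mm9 and without roles. The deposited values are raw read counts per gene, identical in the authors' table of the series and in the library files. The row for reads in no gene held 19.7 to 21.8% of a library and that for ambiguous reads 1.94 to 1.99%, and neither entered library sizes or tests. The authors' deposited comparison holds a fold (a ratio), the log2 of the fold, raw p-values and adjusted p-values. Its groups A and B matched the WT and KO means of normalized counts to within 7.37e-06, so its folds are KO over WT.

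The counts were tested in R 4.3.3 with edgeR 4.0.16 (TMM, filterByExpr with a minimum count of 10, quasi-likelihood test on genotype, Benjamini-Hochberg over 13835 genes). Each SE was taken as log2 fold change over √F, and the 95% interval uses it. Alternatives were RLE factors, DESeq2 1.42.0, limma 3.58.1 (voom), no filter, 1 CPM in 3 libraries, erythroid and mitochondrial rows dropped, the number as a block, and each library left out. Same-numbered libraries deviated together from their genotype means (K77 0.256, K79 0.197 and K80 0.175 as correlations over genes, each above the limit of 0.1), so the number was taken to pair them. The labels do not say what it means or whether each library is a separate embryo, and p-values therefore measure only the spread among these libraries, which may be technical. Replicates differed beyond sampling noise (chi-square per degree of freedom 3.65 to 10.1).

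Named were the 10 genes, called partner genes and the 2 uncalled ones with the highest mean CPM, up to 2 called genes by lowest p from each related group, Zeb2, the Macrod genes, and the nearest genes by distance (0.5 CPM added before the log). Members and lists were chosen with earlier results of these data known. Exon and coding lengths come from GENCODE M21 and promoter sequences from RefSeq (GRCm38.p6), later than mm9. Protein sequences and sequence reads were not analysed here.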

Additional observations from a re-analysis of the deposited data

How the results depend on the processing

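Flrt3 and Odz1 kept direction and call under all 13 alternatives run. Odz3 gained a call under DESeq2, limma voom, no filter (adjusted p = 0.00123), the replicate block, without KO K77 or without WT K79. Of 130 comparisons of a member with its reported value, 116 kept direction and side of the threshold, 6 gained a call, 5 lost it (all Lphn2) and 3 changed sign. Those 3 were members not called, with leave-one-out log2 fold changes of -0.10 to 0.0016 for Flrt2 and -0.12 to 0.19 for Odz4, whose value was -0.03 without KO K79 and -0.12 without WT K80. Among partners, Fgfr2 ranged from -0.13 to 0.0414. With the number as a replicate block 1463 genes were called, 848 higher and 615 lower, against 867, 504 and 363 without it, and among members and partners it changed no call but those of Odz3 and Gpc3. With no filter 546 genes were called lower. Leaving out each library in turn, the calls ranged from 445 (without KO K80) to 1044 (without WT K79), with 270 to 645 higher and 175 to 399 lower. The count was 498 without KO K79 and 528 without WT K77. Members called lower numbered 0 to 1 and partner genes called higher 2 to 5. The causes were not tested. Flrt1 rests on 110 to 205 counts per library, the fewest of the 10 genes.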
